A study of Homo sapiens with 120 samples.

Results

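The 6 receptor genes of the tumour necrosis factor (TNF) family described here in cultured pancreatic cancer cells were TNFRSF12A, TNFRSF6B, TNFRSF10A, TNFRSF10B, TNFRSF1A and TNFRSF21. They are 6 of the 27118 gene names in the deposited expression table, and all 6 were found there by name. TNFRSF12A stands on more than 1 row, and the row with the highest mean over the 120 libraries was used, at 450.8 FPKM (sequenced fragments per unit of transcript length, relative to the total of the library). The other TNFRSF12A row had a mean of 0.94 FPKM and was above 0 in 10 libraries. The TNFRSF12A row was thus chosen by its mean level. The 6 names were selected on earlier results of these same libraries, and which measured values led to each name is not recorded. Levels and differences of these genes are therefore a description, and no p-value below is independent support for them.

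The cells were CFPAC-1, an established line from a pancreatic ductal adenocarcinoma, and the study compared ways of isolating single cells for RNA sequencing. Untreated cells were profiled as 4 bulk libraries, as microrafts (small releasable culture platforms) carrying 0, 1 or 2 cells with 10 libraries each, and as captures of 0, 1 or 2 cells on the Fluidigm C1 microfluidic chip with 5 libraries each. A further 7 libraries were made from water. In a second experiment, rafts labelled proliferative or nonproliferative were collected without treatment, in saline, in 2 nM gemcitabine or in 5 nM gemcitabine, with 8 libraries for each of the 8 combinations. Gemcitabine is a nucleoside analogue that blocks DNA synthesis. The labels give the number of cells on these rafts as unknown, so fewer cells and less RNA per cell cannot be told apart. Their titles number the rafts of each treatment as a set of their own, so treatment and library set cannot be told apart either. All libraries come from 1 cell line, and nothing in the labels says that rafts came from separate cultures, so p-values measure the spread between rafts only.

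TNF receptors are membrane proteins that bind trimeric ligands and pass the signal through adaptors. Those with a death domain recruit FADD or TRADD and can start caspase activation, and others bind TRAF proteins and turn on NF-kB. Decoy receptors bind ligand without passing a signal. TNFRSF12A is Fn14, the short receptor of TWEAK, which has no death domain and is known for induction in injured and growing epithelium. TNFRSF6B is the soluble decoy receptor that takes up FAS ligand, LIGHT and TL1A and is often high in tumours. TNFRSF10A and TNFRSF10B are the death receptors of TRAIL, TNFRSF1A is the main receptor of TNF itself, and TNFRSF21 is the death-domain receptor also called death receptor 6.

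The table gives no read counts, so depth is unknown. Bulk libraries held 8570 to 10581 genes at 1 FPKM or more, 1-cell rafts 4804 to 8461, 1-cell C1 captures 8560 to 10474, and treatment rafts 7 to 10424. Of the 64 treatment rafts, 52 held at least 1000 genes and 34 had a Spearman rank correlation with mean bulk, over 10619 genes, of at least 0.25. No blank (empty raft, empty C1 capture or water) passed 0.199. The 34 were 22 proliferative and 12 nonproliferative rafts, so how bulk-like a raft's profile was moved with the class. Several libraries stood apart. Saline nonproliferative replicate 3 and 5 nM nonproliferative replicate 7 held 10424 and 10198 genes but correlated with bulk at -0.11 and -0.02, and 5 nM proliferative replicate 8 correlated at 0.07. Tests were run on the 52 libraries and again on the 34, called bulk-like below, and each value is given with its set. Ductal epithelial markers were present in bulk, with KRT18 at 785 FPKM, KRT8 at 348 and EPCAM at 323, while CFTR was listed at 0. The summed markers of blood cells, endothelium and fibroblasts had medians of 0 in either class of treatment raft. Those of keratinocytes had medians of 160 FPKM in proliferative and 0 in nonproliferative rafts, but 254 and 231 in the bulk-like ones. Bulk itself held the keratinocyte markers KRT10 at 140 FPKM and DMKN at 137, with the others on that list at 0.

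TNFRSF12A and TNFRSF6B led the receptor family in bulk CFPAC-1 cells. Among 29 family genes in the table, 14 had a bulk mean of at least 1 FPKM. TNFRSF12A was at 140.52, 201.44, 537.86 and 494.61 FPKM in the 4 bulk libraries, and TNFRSF6B at 82.38, 161.66, 245.11 and 192.26. The ranges of these leaders overlap. TNFRSF21 came next at 39.66, 33.64, 37.19 and 51.38 FPKM, below every TNFRSF6B value. TNFRSF10B was seventh at 4.92, 10.43, 8.29 and 15.86 FPKM, below TNFRSF21 in each library. TNFRSF1A was at 0, 0.72, 7.15 and 9.08 FPKM and TNFRSF10A at 0, 2.34, 3.0 and 1.42. Those ranges overlap, and that of TNFRSF1A overlaps TNFRSF10B as well. CD40 at a mean of 28.8, TNFRSF11B at 22.8 and FAS at 15.0 FPKM stood between TNFRSF21 and TNFRSF10B by mean, though CD40 ran from 5.3 to 50.86. RefSeq places TNFRSF6B inside the readthrough gene RTEL1-TNFRSF6B, and TNFRSF10B overlaps RHOBTB2 and an antisense gene, so how reads were shared there is uncertain.

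**Figure D1:**
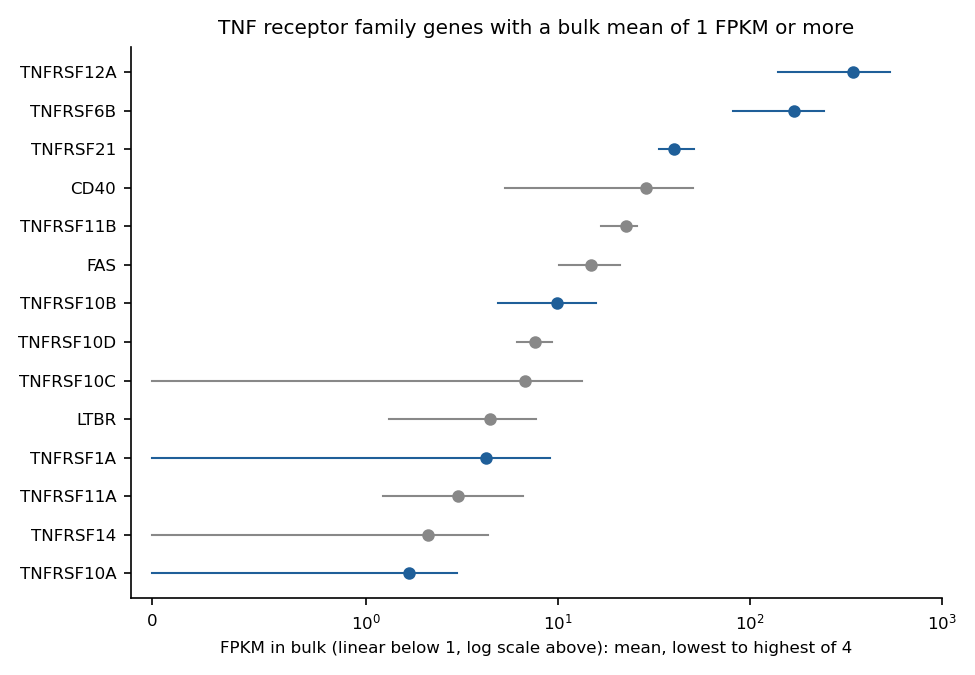
Mean FPKM over the 4 bulk libraries (horizontal axis, linear near 0 and logarithmic above) for the 14 TNF receptor family genes with a bulk mean of at least 1, with bars from the lowest to the highest library. The 6 genes described are blue and other family genes grey, and TNFRSF12A (343.6) and TNFRSF6B (170.4) lie to the right of all others.

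TNFRSF12A was far higher in cells taken on rafts than in cells captured on the C1 chip. On 1-cell rafts its lowest, median and highest values were 239.82, 824.9 and 1940.44 FPKM, and on 2-cell rafts 576.16, 1019 and 1539.66. The 1-cell C1 captures held 15.1, 15.99, 69.19, 198.76 and 18.61 FPKM, and the 2-cell captures 19.7, 68.33, 188.93, 32.77 and 90.29. Every raft with a cell was thus above every C1 capture, while bulk overlapped both. On the log2(FPKM + 1) scale the 1-cell means were 9.61 ± 0.91 (SD, n = 10) on rafts and 5.23 ± 1.61 (SD, n = 5) on C1, a difference of 4.38. The ratio of mean FPKM was 14.6 for 1 cell and 13.1 for 2 cells. Among all genes detected in either group, 1.21% were higher without overlap on 1-cell rafts than in 1-cell captures, and 3.66% on 2-cell rafts than in 2-cell captures. Rafts and captures differ in library set as well as in method, and no test was run between them. TNFRSF12A was at 0 in all 10 empty rafts and all 5 empty captures. Being above every blank of its own method was common among genes, at 11.7% for 1-cell rafts and 10.2% for 1-cell captures, and held for TNFRSF12A and TNFRSF21 in both.

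TNFRSF6B was also higher on rafts than on C1, with overlap at 1 cell and none at 2 cells. Its lowest, median and highest values were 0, 145.8 and 735.57 FPKM on 1-cell rafts, where 8 of 10 libraries detected it, and 80.43, 207.9 and 556.42 on 2-cell rafts. On C1 it was at 1.26, 0, 0, 31.8 and 4.81 FPKM with 1 cell and at 3.4, 5.32, 33.87, 15.39 and 1.67 with 2 cells. The ratio of the 2-cell means was 20.1. An empty C1 capture held TNFRSF6B at 27.58 FPKM and the other empty captures were at 0. That value was above all captures with cells except the highest at either cell number. By log2 mean the 1-cell captures were above the empty ones by 0.78, with overlap. Against bulk the 1-cell rafts were lower by log2 mean for TNFRSF6B, at -1.79, and higher for TNFRSF12A, at 1.41, both with overlap. All 1-cell captures lay below all 4 bulk libraries, which was also true of 11.3% of genes. By raft library set, the 1-cell values were 304.57, 735.57, 1.53, 309.17 and 179.38 FPKM in the first and 144.01, 63.39, 147.49, 0 and 0 in the second, which overlap. The readthrough RTEL1-TNFRSF6B was at 85.76 FPKM in 1 of the 1-cell captures in which TNFRSF6B was at 0.

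The death-domain receptors showed smaller gaps between methods. TNFRSF21 was at 3.12, 89.9 and 167.47 FPKM (lowest, median, highest) on 1-cell rafts and at 14.18, 10.12, 34.87, 29.71 and 35.28 in 1-cell captures. These groups overlap, with a log2 difference of 1.41. TNFRSF10A was at 0, 10.1 and 25.34 FPKM on 1-cell rafts and at most 2.05 in 1-cell captures, with a log2 difference of 1.49 and overlapping groups. TNFRSF1A was lower on 1-cell rafts than in 1-cell captures by log2 mean, at -1.54, and higher with 2 cells, at 0.41, with overlap in both. The 1-cell captures held 74.08, 2.42, 5.88, 60.46 and 8.02 FPKM of TNFRSF1A, so 2 of the 5 were above the highest 1-cell raft at 30.94. TNFRSF10B had a log2 difference of -0.23 between 1-cell rafts and captures, within the spread of either group.

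TNFRSF10B was the only one of the 6 whose captures of 1 and 2 cells did not overlap. Captures of 1 cell held 0, 4.64, 9.22, 4.07 and 8.44 FPKM, and captures of 2 cells held 38.04, 54.9, 19.92, 25.79 and 10.15. Among genes detected in either group, 0.393% were higher without overlap in 2-cell captures. On rafts the order was the same but the groups overlapped, with 0, 2.98 and 30.32 FPKM (lowest, median, highest) for 1 cell and 8.29, 15.5 and 46.36 for 2 cells. Empty C1 captures held TNFRSF10B at 71.97 and 4.73 FPKM in 2 of 5, the first above every 2-cell capture. Over all blanks TNFRSF10B was detected in 4 of 22, the most of the 6 genes, up to 80.95 FPKM. For TNFRSF12A the log2 difference between 2 and 1 cells was 0.36 on rafts and 0.70 on C1, both with overlap. On rafts with 2 cells, all 6 genes were detected in 8 of 10 libraries, against 5 of 10 with 1 cell.

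**Figure D2:**
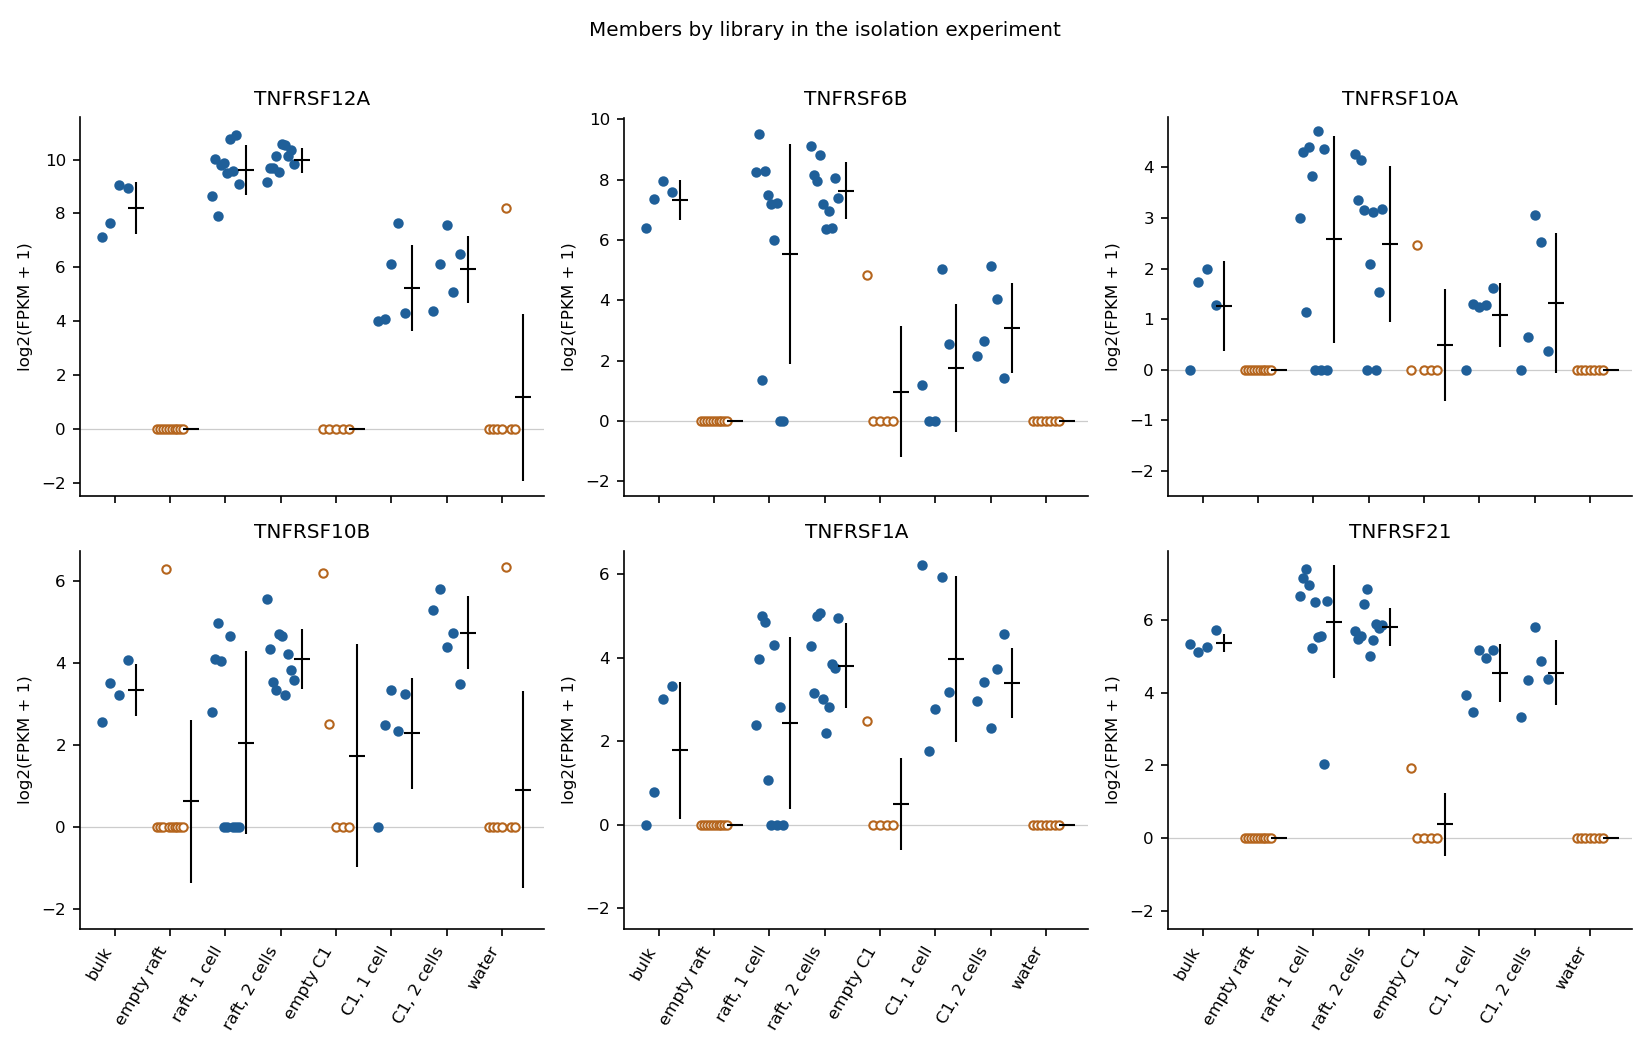
log2(FPKM + 1) of the 6 genes (one panel each) in every bulk, raft, C1 and water library, where filled blue points are libraries with a rank correlation with bulk of at least 0.25, open brown points are those below it, and black dashes with bars are mean ± SD. For TNFRSF12A the raft libraries with cells (239.82 to 1940.44 FPKM) all sit above the C1 captures (at most 198.76).

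Across the treatment rafts TNFRSF12A was either high or close to 0. Without treatment, proliferative rafts held 1245.9, 431.06 and 685.5 FPKM in 3 of 8 libraries and 0 in the others, and 1 of 8 nonproliferative rafts held 1.77. In saline, proliferative rafts held 1408.78, 490.76, 657.45, 1384.51, 0, 2987.52, 731 and 493.97 FPKM, and nonproliferative rafts held 1870.52, 2330.2, 1157.3 and 2617.04 in 4 libraries and 0 in the other 4. In saline, therefore, the rafts that held TNFRSF12A overlapped between the classes. At 2 nM gemcitabine, 6 of 8 proliferative rafts held 166.98 to 1593.72 FPKM, and 3 of 8 nonproliferative rafts held 176.5, 1007.32 and 102.63. At 5 nM, proliferative rafts held 2862.28, 1814.76, 212.7, 738, 0, 302.88, 0 and 1944.19 FPKM. At that dose the nonproliferative rafts held 7.76 and 2.18 FPKM in 2 libraries and 0 in the other 6. An approximate conversion puts 7.76 and 2.18 FPKM at 1.07 and 1.09 sequenced fragments, so no nonproliferative raft at 5 nM held more than about 1 fragment of TNFRSF12A.

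**Figure D3:**
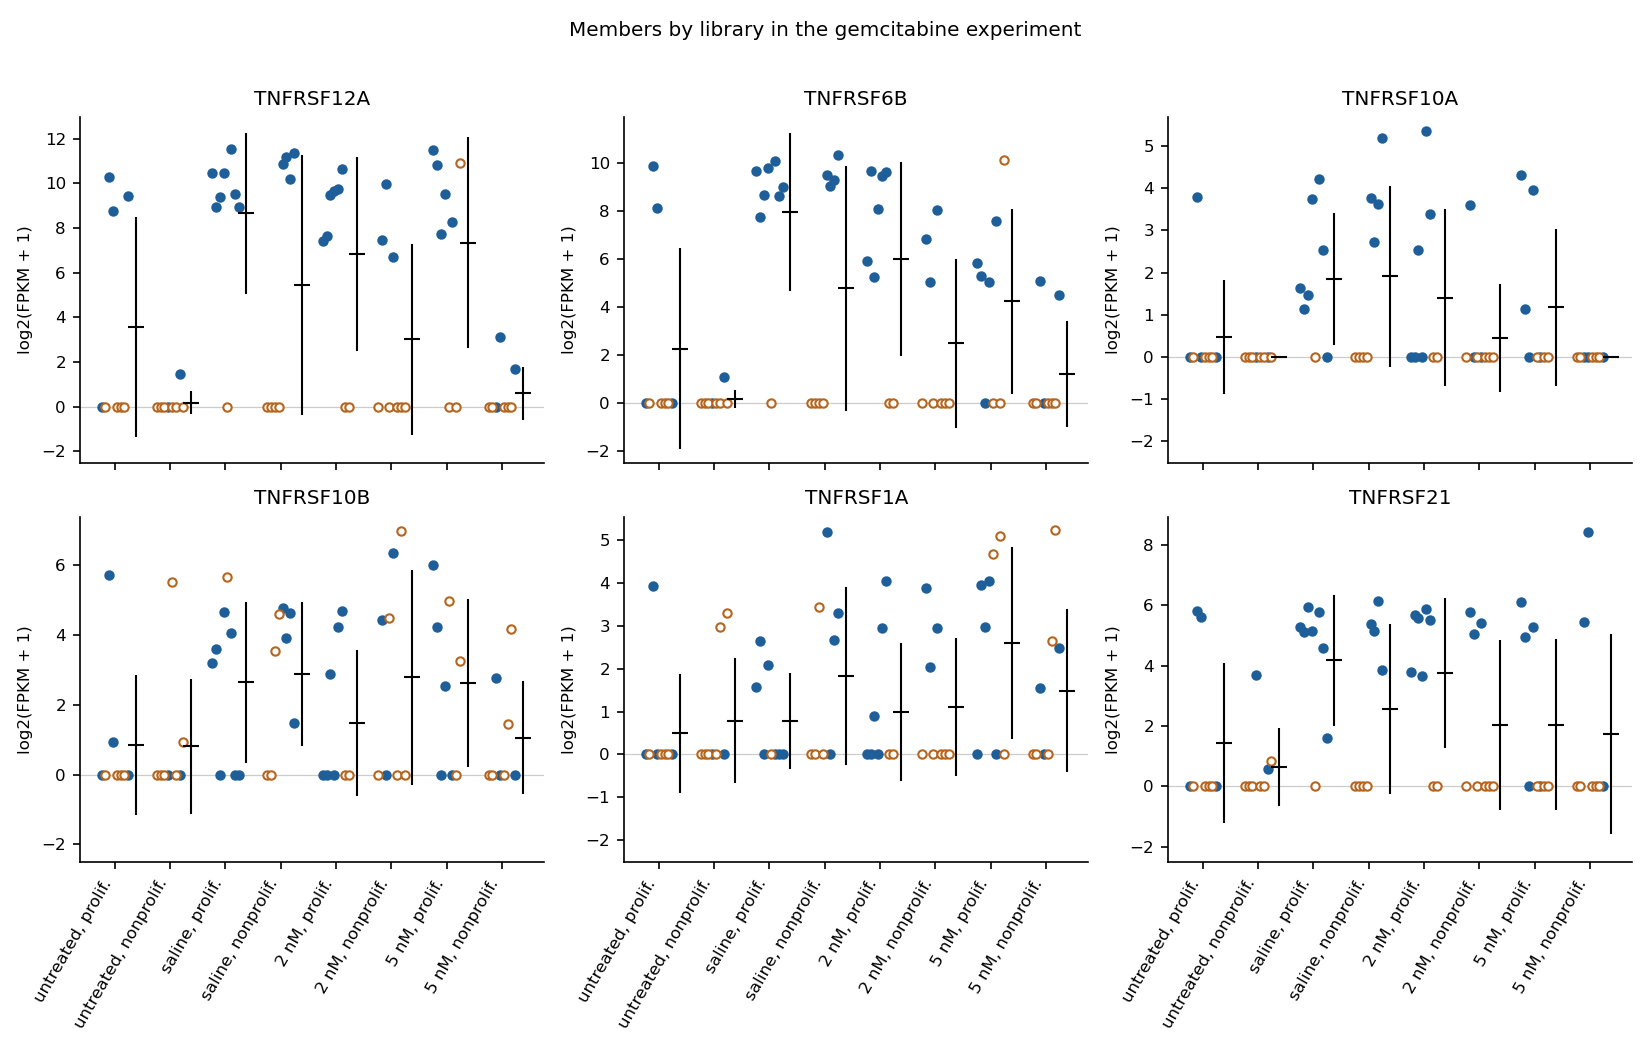
log2(FPKM + 1) of the 6 genes (one panel each) in the 64 treatment rafts by treatment and class, 8 libraries a group, with symbols as in the plot of bulk, raft and C1 libraries. TNFRSF12A is at most 7.76 FPKM in nonproliferative rafts at 5 nM gemcitabine and reaches 2862.28 in proliferative rafts at that dose.

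Averaged over the 4 treatments, TNFRSF12A and TNFRSF6B were higher in proliferative rafts. In the 52 libraries with at least 1000 genes, TNFRSF12A was detected in 22 of 26 proliferative rafts (median 697 FPKM) and 10 of 26 nonproliferative rafts (median 0). Its fitted log2 difference was 5.28 ± 1.05 (SE), with an adjusted p of 0.00201 by limma. TNFRSF6B was detected in 20 and 10 of 26, with medians of 241 and 0 FPKM, and rose by 3.63 ± 0.96 (adjusted p = 0.00966, limma). Of the 11416 genes tested, 12.3% were called in this comparison, 1314 higher and 89 lower, and the median log2 difference of all genes was 0.58. With quantile normalization that median was -0.02 and the calls were 481 higher and 253 lower. TNFRSF12A then differed by 4.62 (adjusted p = 0.00570) and TNFRSF6B by 2.81 (adjusted p = 0.0371). The other 4 genes did not pass. In the 52 libraries the difference was 1.36 ± 0.76 for TNFRSF21 (adjusted p = 0.198, limma), 0.78 ± 0.49 for TNFRSF10A, 0.07 ± 0.65 for TNFRSF10B and -0.31 ± 0.55 for TNFRSF1A. In the 34 bulk-like libraries the sign of TNFRSF21 turned, at -0.35 ± 0.89, and the others were at 0.45 ± 0.68, 0.05 ± 0.82 and -0.42 ± 0.64 in that order.

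Bulk-like profiles were themselves more frequent among proliferative rafts, at 22 of 32 against 12 of 32. Over all 32 rafts a class, the summed ductal epithelial markers had a median of 3075 FPKM in proliferative and 746 in nonproliferative rafts. In the bulk-like rafts these medians were 3915 and 2582. The summed proliferation markers had medians of 346 and 0.51 FPKM over all rafts, and 611 and 146 in the bulk-like ones. In the 52 libraries 4 of 8 proliferation markers were called higher in proliferative rafts. So were 2 of 9 ductal markers tested and the keratinocyte marker DMKN at 2.67. The part of these differences in the result was not tested. In the 34 bulk-like libraries 93 of 9976 genes, or 0.932%, were called between the classes. TNFRSF12A was among them at 3.59 ± 0.69 (adjusted p = 0.00192, limma), and TNFRSF6B was not, at 1.60 ± 0.86 (adjusted p = 0.450). TNFRSF12A passed under each of the 10 alternatives run for this comparison, with adjusted p from 0.00172 to 0.0198. TNFRSF6B kept its call under 8 of the 10.

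By treatment, the class difference of TNFRSF12A was positive in every arm of the 52 libraries but not in the bulk-like ones. In the 52 it was 5.40 ± 2.37 without treatment (adjusted p = 0.619, limma), 3.66 ± 2.00 in saline (adjusted p = 0.452), 4.34 ± 2.00 at 2 nM (adjusted p = 0.404) and 7.71 ± 2.00 at 5 nM (adjusted p = 0.196), and none passed. The change from saline to 5 nM was 4.05 ± 2.83 there (adjusted p = 0.999). limma called 0 of 11416 genes (0%) at 5 nM and 0 (0%) for that change, with 1023 and 355 genes at an unadjusted p under 0.05. In the bulk-like libraries the difference at 5 nM was 7.97 ± 1.37 (adjusted p = 0.000761, limma), where 0.521% of genes were called. None of the 3 nonproliferative rafts overlapped the 5 proliferative ones, which held 212.7 to 2862.28 FPKM. Such a gap was seen in 0.922% of genes. In saline the bulk-like difference was -1.01 ± 1.18 (adjusted p = 0.999) and at 2 nM 1.04 ± 1.33 (adjusted p = 0.997). The test of the change in class difference from saline to 5 nM gave 8.97 ± 1.81 (adjusted p = 0.0224, limma), and 5 genes, or 0.0501%, passed it. That call was lost when saline nonproliferative replicate 5 or 8, or 5 nM nonproliferative replicate 3, was left out, with an adjusted p of up to 0.109. Without treatment the difference was 6.38 ± 1.63 (adjusted p = 0.0388, with 0.692% of genes called). It rests on 4 proliferative and 2 nonproliferative rafts, and leaving out 1 library ended the call in 5 cases.

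TNFRSF6B was lower at 5 nM gemcitabine than in saline. Saline proliferative rafts held 813.24, 213.96, 405.06, 885.28, 0, 1086.1, 396.07 and 516.98 FPKM, and saline nonproliferative rafts held 726.26, 535.75, 625 and 1313.02 in 4 libraries and 0 in the others. At 5 nM the proliferative rafts held 55.41, 38.46, 0, 32.23, 0, 189.46, 0 and 1123.83 FPKM, and the nonproliferative rafts 33.26 and 21.61 in 2 libraries and 0 in 6. The one high value at 5 nM is replicate 8, the proliferative library that stood apart from bulk. Over both classes TNFRSF6B fell by 4.17 ± 1.29 on the log2 scale in the 52 libraries (adjusted p = 0.0422, limma), where 4.73% of genes were called, 8 higher and 532 lower, and the median of all genes was -0.77. With quantile normalization the median of all genes was 0.01, with 20 higher and 103 lower calls, and TNFRSF6B differed by -4.55 (adjusted p = 0.0349). In the 34 bulk-like libraries the difference was -5.35 ± 1.13 (adjusted p = 0.00369, with 6.07% of genes called). From the 52 libraries the call was lost with no filter on low genes (adjusted p = 0.0820), with all 64 rafts at -3.65 (adjusted p = 0.0707) and with the number of detected genes as a covariate at -2.88 (adjusted p = 0.319).

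Within each class the bulk-like groups of TNFRSF6B did not overlap. Over all 8 rafts a group they did overlap in both classes. The bulk-like set leaves out saline rafts at 0 and 5 nM proliferative replicate 8 at 1123.83 FPKM. Proliferative rafts had at least 213.96 FPKM in saline and at most 189.46 at 5 nM, a gap seen downward in 0.728% of genes. Nonproliferative rafts had at least 535.75 in saline and at most 33.26 at 5 nM, a gap seen downward in 12.8% of genes, among them TNFRSF12A and TNFRSF10A. The fitted difference was -4.34 ± 1.37 in proliferative rafts (adjusted p = 0.212, limma) and -6.36 ± 1.79 in nonproliferative rafts (adjusted p = 0.0554).

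TNFRSF12A itself fell with 5 nM gemcitabine in bulk-like nonproliferative rafts. There the log2 difference from saline was -9.30 ± 1.44 (adjusted p = 7.92e-05, limma, with 1.12% of genes called), against -0.32 ± 1.10 in proliferative rafts (adjusted p = 0.940). The 3 nonproliferative rafts at 5 nM held 3719 to 4478 genes, and the 4 in saline 6428 to 9107, and the part of this gap in the result was not tested. Over both classes the difference was -4.81 ± 0.91 in the 34 libraries (adjusted p = 0.00184) and -3.52 ± 1.41 in the 52 (adjusted p = 0.104). In the 52 libraries the nonproliferative difference was -5.54 ± 2.00 (adjusted p = 0.333), and limma called 0 of 11416 genes (0%), with 1509 at an unadjusted p under 0.05. At 2 nM the differences from saline were -2.44 for TNFRSF12A and -2.42 for TNFRSF6B over both classes in the 52 libraries (adjusted p = 0.744 and 0.743, limma), and -1.82 and -1.997 in the 34 (adjusted p = 0.999 each).

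By fitted mean, saline rafts were above untreated rafts for TNFRSF12A and TNFRSF6B in the bulk-like libraries, with overlapping values. Untreated rafts reached 1245.9 and 940.89 FPKM of these genes, and saline rafts began at 490.76 and 213.96. The untreated side was 4 proliferative and 2 nonproliferative rafts with 1495 to 8271 genes. The saline side was 7 and 4 rafts with 4029 to 10099 genes, and the part of this gap in the result was not tested. TNFRSF12A differed by 6.47 ± 1.01 (adjusted p = 0.000138, limma) and TNFRSF6B by 6.81 ± 1.25 (adjusted p = 0.00129), and 5.62% of genes were called. In the 52 libraries the differences were 5.06 ± 1.55 (adjusted p = 0.0571) and 5.37 ± 1.41 (adjusted p = 0.0512), with 0.385% of genes called and an all-gene median of 1.10. Both were called under 5 of 10 alternatives. With the number of detected genes as a covariate they were 2.54 and 3.37 (adjusted p = 0.992 each). The comparisons with saline share the saline rafts, so they are not separate evidence. The water library of the saline set held TNFRSF12A at 293.58 FPKM and TNFRSF6B at 0. Its bearing on those comparisons was not tested. The 1-cell rafts of the isolation experiment, also untreated, all held TNFRSF12A, at 239.82 to 1940.44 FPKM. Of the 16 untreated rafts here 4 detected it. Values of 431.06, 685.5 and 1245.9 FPKM lay inside that range, and the remaining rafts were at most 1.77. Untreated rafts thus differed between the experiments in how often TNFRSF12A was detected. They also differed in profile, since all 10 of the 1-cell rafts reached the correlation limit of 0.25 and only 6 of these 16 did. In those 6, TNFRSF12A was detected in 4. The part of this in the difference between the experiments was not tested.

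**Figure D4:**
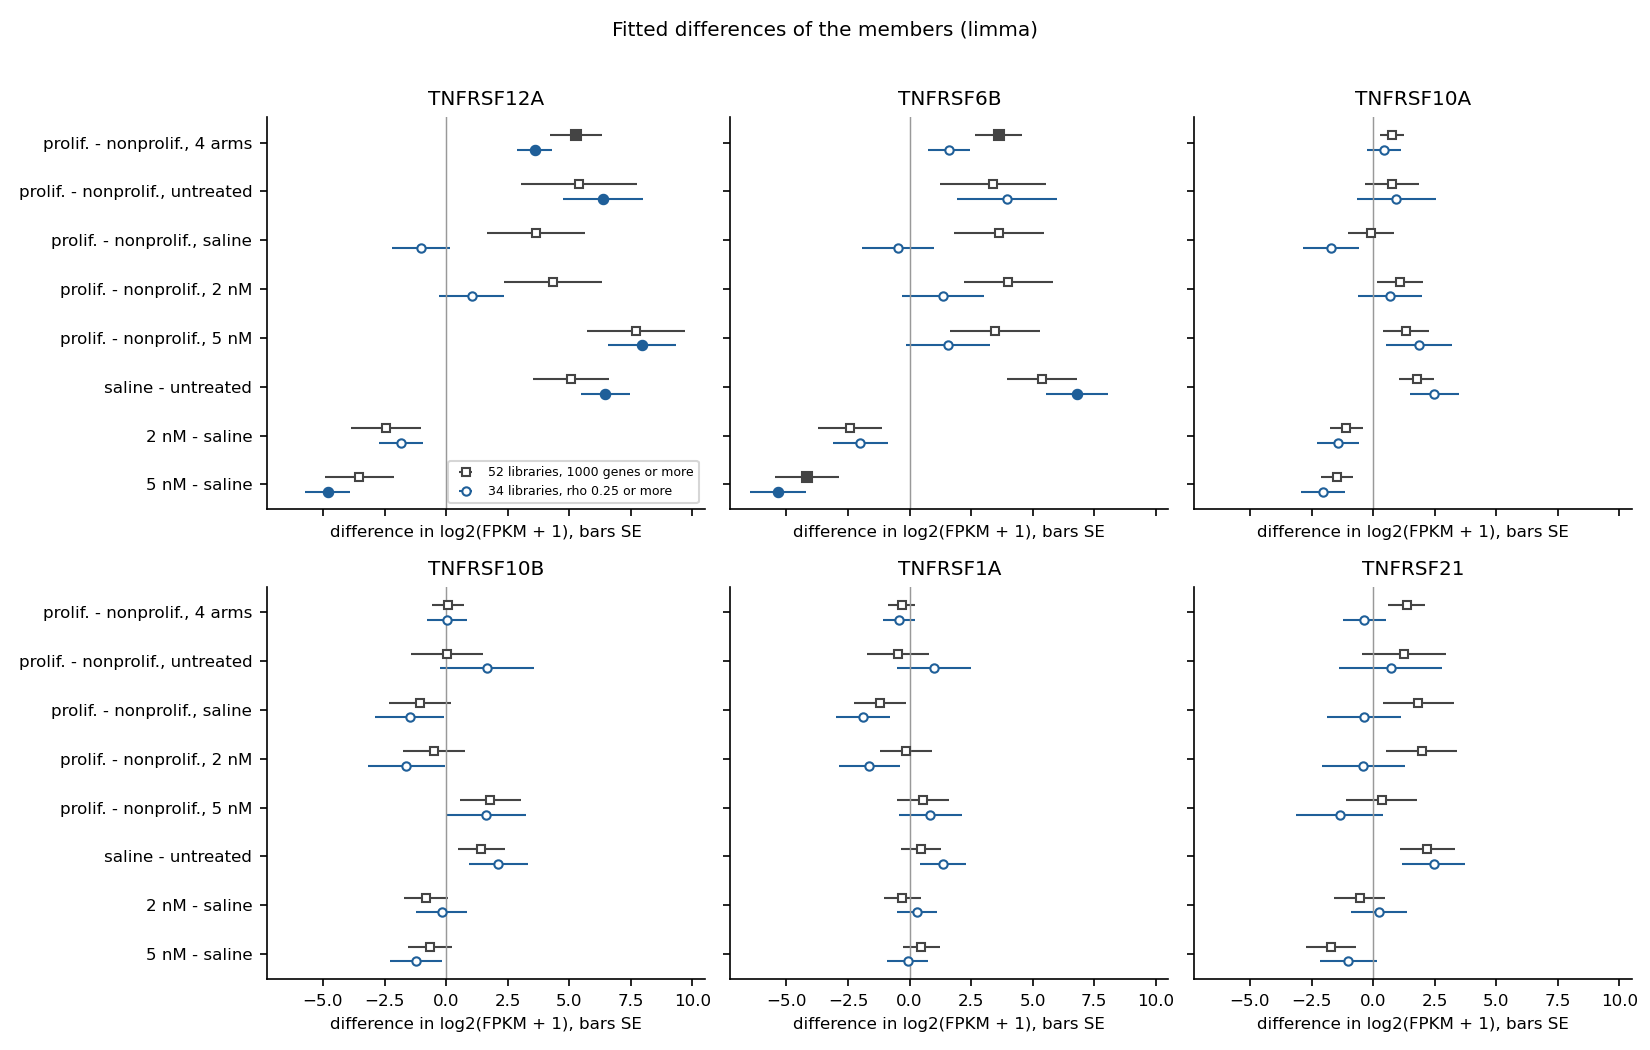
Fitted log2 differences ± SE of the 6 genes by limma for the main comparisons of the treatment rafts, with black squares for the 52 libraries, blue circles for the 34 bulk-like libraries, and filled symbols for an adjusted p under 0.05. TNFRSF12A is filled in both sets for proliferative against nonproliferative rafts (5.28 and 3.59), and TNFRSF6B in both for 5 nM against saline (-4.17 and -5.35).

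The ratio of the leading pair was lower at the median with 5 nM gemcitabine than in saline, with overlapping ranges. In libraries with at least 10 FPKM of TNFRSF12A, TNFRSF6B was 0.389 to 0.803 times as high in bulk (median 0.521). In proliferative saline rafts it was 0.364 to 1.05 times as high (median 0.577), and in 6 proliferative rafts at 5 nM it was 0 to 0.626 times (median 0.0324). At 2 nM the 6 proliferative rafts spread from 0.0516 to 4.08. The ratio on untreated rafts of 1 or 2 cells ran from 0 to 0.966 (median 0.193), so low ratios also occurred without gemcitabine.

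**Figure D5:**
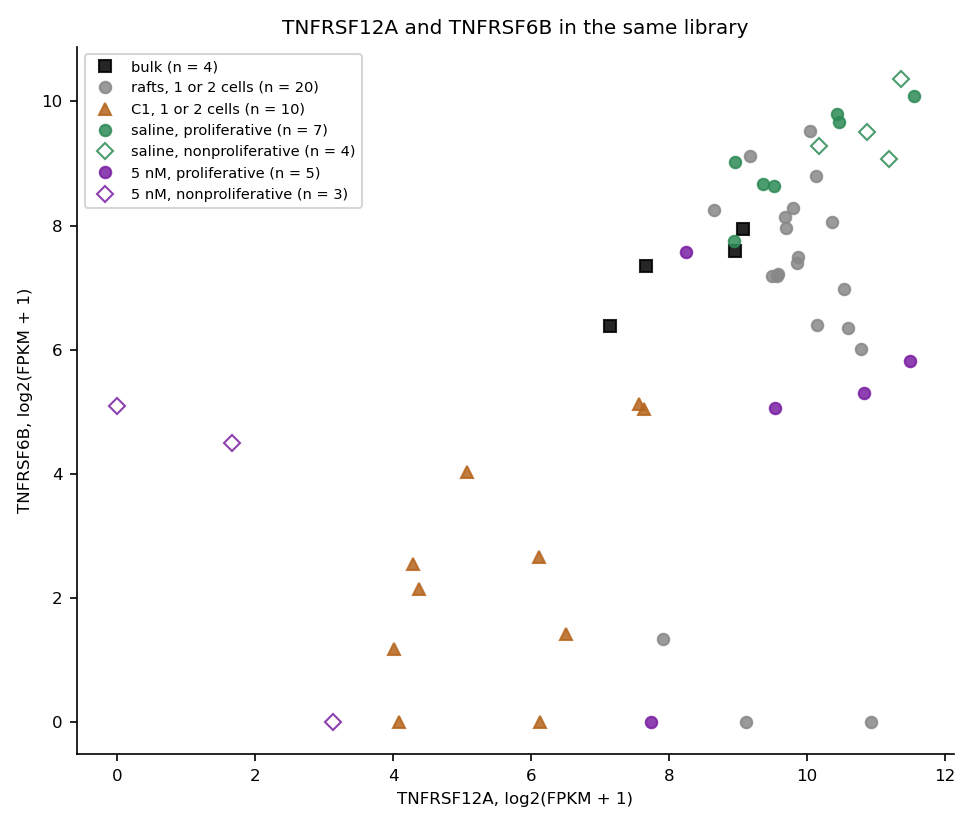
log2(FPKM + 1) of TNFRSF12A (horizontal) against TNFRSF6B (vertical) in bulk-like libraries, by isolation method or by saline and 5 nM gemcitabine with class. Saline rafts lie at high values of both genes. C1 captures lie at 15.1 to 198.76 FPKM of TNFRSF12A with TNFRSF6B of at most 33.87. Proliferative rafts at 5 nM lie at 212.7 to 2862.28 FPKM of TNFRSF12A with TNFRSF6B of at most 189.46.

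In the bulk-like treatment rafts TNFRSF10A, TNFRSF10B and TNFRSF1A were detected less often than TNFRSF21, which came close to TNFRSF6B at 29 of 34. TNFRSF21 was detected in 28 of the 34 bulk-like libraries and in none of the other 30. In saline its bulk-like values were 38.39, 33.41, 60.34, 34.69, 54.28, 23.14 and 2.02 FPKM in proliferative and 41.28, 34.5, 69.7 and 13.64 in nonproliferative rafts, which overlap. Its highest value in the study, 346.06 FPKM, was in a 5 nM nonproliferative raft that held 7.76 FPKM of TNFRSF12A and none of TNFRSF6B. That value corresponds to about 174 fragments, against about 1 for TNFRSF12A in the same raft. TNFRSF21 at 5 nM was at 67.76, 29.71 and 37.94 FPKM in 3 proliferative rafts, and its difference from saline was -1.70 ± 1.02 in the 52 libraries (adjusted p = 0.273, limma) and -1.02 ± 1.16 in the 34 (adjusted p = 0.593). TNFRSF10A was detected in 18 of the 34 and in none of the 30. In nonproliferative saline rafts TNFRSF10A held 12.58, 5.65, 11.28 and 35.2 FPKM, and it was 0 in all 8 nonproliferative rafts at 5 nM. Its difference over both classes was -1.48 ± 0.66 in the 52 libraries (adjusted p = 0.142) and -2.03 ± 0.88 in the 34 (adjusted p = 0.137). Its highest value was 40.07 FPKM in a proliferative raft at 2 nM.

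TNFRSF10B and TNFRSF1A were also seen in rafts whose profile was not bulk-like, though less often. TNFRSF10B was detected in 18 of the 34 bulk-like libraries and in 10 of the other 30, up to 124.64 FPKM. TNFRSF1A was detected in 17 of the 34 and in 7 of the 30, up to 36.48 FPKM. By contrast TNFRSF12A was detected in 31 of the 34 and in 1 of the 30. The 34 held a median of 6434 genes and the 30 a median of 1256. All 6 genes were among those used for the correlation, so their detection is not independent of this split. Between 5 nM and saline, the log2 difference of TNFRSF10B was -0.65 in the 52 libraries and -1.22 in the 34. That of TNFRSF1A was 0.48 and -0.07, a turn in sign, and none of these passed the test. None of the 6 genes was detected in 17 of the 30 libraries below the correlation limit and in 18 of 22 blanks.

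Other genes of the pathway were counted from fixed lists in the 52 libraries. Between the classes 11.5% of all genes were called higher, and the median log2 difference of all genes was 0.58. None of the 11 other receptors tested, of 23 listed, was called, with a median of 0.07, and none of 4 ligands tested, of 18 listed, with a median of -0.09. Of the 18 listed ligands 17 were found by name. The missing name was TNFSF12 (TWEAK, the ligand of TNFRSF12A), so nothing is known of its level here. In bulk the ligands found were led by TNFSF10 (TRAIL, the ligand of TNFRSF10A and TNFRSF10B) at 10.2 FPKM. Of 26 adaptors and enzymes tested, 6 were called higher in proliferative rafts and 0 lower, with a median of 0.72. Among them were RBCK1 at 3.83 and SHARPIN at 2.13, partners in the linear ubiquitin ligase, and the ubiquitin ligase BIRC2 at 2.12. Of 11 NF-kB genes tested, 2 were called higher, the kinase scaffold IKBKG at 1.63 and the inhibitor NFKBIE at 1.83, with a median of 1.00, a count close to the share of all genes. No gene of either list was called in the bulk-like libraries or with the number of detected genes as a covariate, and with quantile normalization 1 adaptor was.

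Between 5 nM and saline, 4.66% of all genes were called lower in the 52 libraries. Of the 26 adaptors 4 were called lower, FADD at -2.88, SHARPIN at -3.40, TRADD at -2.76 and RNF31 at -2.06, with a list median of -0.93 against -0.77 for all genes. FADD and TRADD are the adaptors that death-domain receptors recruit. The count was 2 of 25 tested in the bulk-like libraries, 1 of 26 with quantile normalization and 0 of 26 with the covariate. No other receptor, ligand or NF-kB gene was called there, and in saline against untreated rafts no gene of these 4 lists was called in the 52 libraries.

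Among the 20 rafts with 1 or 2 cells, correlations between the genes themselves were modest. The Pearson r of log2 values, taken as deviations from the means of the 4 groups by cell number and set, was 0.67 for TNFRSF12A and TNFRSF10A, 0.63 for TNFRSF10B and TNFRSF1A, and 0.30 for TNFRSF12A and TNFRSF6B. It was -0.59 for TNFRSF10A and TNFRSF21 and -0.54 for TNFRSF12A and TNFRSF21. These points share library set, and no test was made. The genes with the most similar pattern among those compared were UBA1 (0.84), EREG (0.82) and MYEOV (0.79) for TNFRSF12A. For TNFRSF6B they were ACSL5 (0.94), RAB4A (0.91) and SCO2 (0.90), and for TNFRSF21 CDRT1, UBXN1 and SHARPIN (0.88 each). TNFRSF10A was nearest to DKK1 (0.80), TNFRSF10B to GPR137 (0.91) and TNFRSF1A to MGC4836 (0.83). Each was picked as the highest of at least 7380 genes compared, so these values describe these rafts only.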

How the data were processed

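RNA was sequenced from CFPAC-1 cells in 120 libraries with the SMARTer and Nextera XT chemistries, per the labels' protocols. The authors deposited 1 table of FPKM values with 30504 rows and 27118 names, of which 1116 stand on several rows. Per the submitters' processing notes, RSEM and hg19 were used. Depth is unknown, and column totals ran from 339644 to 817990 FPKM. FPKM values are relative to each library, so a rise of some genes lowers the others, and a gene at 0 may have been missed in a single cell. Every column was mapped to a sample, leaving 0 unused.

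Groups came from the labels. Repeated names were reduced to the row of highest mean. A gene was called detected at 1 FPKM. Values were tested as log2(FPKM + 1), so fold changes of low genes are understated. The treatment rafts with at least 1000 detected genes were fitted over 8 groups with limma 3.58.1 in R 4.3.3, using genes detected in at least 8 libraries, with Benjamini-Hochberg adjustment over all genes and a threshold of 0.05. The fit between the classes, averaged over the treatments, was tried on the real values with class labels shuffled within each treatment and known shifts added. The other comparisons and the bulk-like set were not tried in this way. Bulk, raft and C1 libraries were compared by value only. Spearman rho with bulk used genes with a bulk mean of at least 1 FPKM. Fragments were approximated from the smallest step between FPKM values of 1382 single-transcript genes, which was clear in 65 libraries, assuming fragments of 200 bases. These are not independent molecules. Plots were drawn with matplotlib 3.10.9, and tables were made with pandas 2.3.3 and scipy 1.17.1 under Python 3.11.15.

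The 6 genes and the lists were chosen with earlier results of these data known. All 6 genes are named throughout. From each list, up to 4 genes highest in bulk and up to 4 past the threshold with the smallest p could be named, and up to 3 genes nearest each of the 6 by correlation. A gene that this rule names is not reported here. Alternatives covered the pseudocount, filters, library selection, normalization, a covariate for detected genes and left-out replicates. Several steps were added after seeing the data. These were leaving out the libraries that stood apart and the comparisons of 5 nM with saline inside each class. The comparison of 2-cell rafts with 2-cell C1 captures was another. So were the fits that left out each bulk-like treatment raft in turn, and the recounts per gene list.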

Additional observations from a re-analysis of the deposited data

Results flagged for a closer look

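In groups of 4 to 10 libraries, the highest or lowest library was set apart from its neighbours in 19 of 84 gene and group combinations, by Dixon's criterion at the 95% level. Chance gives about 1 in 20 for values without ties, but 12 of the 19 are a single library above 0 in a group otherwise at 0, which always meets the criterion, so that rate is no yardstick here. No cause was tested.

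TNFRSF12A was at 293.58 FPKM in 1 water library, that of the saline set, which held 2097 genes and TNFRSF10B at 80.95. Every other water library was at 0 for TNFRSF12A. TNFRSF12A was at 0 in saline proliferative replicate 5, where the next value was 490.76, and TNFRSF6B was at 0 there, where the next was 213.96. In untreated nonproliferative replicate 7, TNFRSF12A was at 1.77 and TNFRSF6B at 1.09 FPKM. TNFRSF6B was at 27.58 FPKM in 1 empty C1 capture.

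TNFRSF10B was at 77.42 FPKM in 1 empty raft and at 44.46 in untreated nonproliferative replicate 5. Untreated proliferative replicate 3 held the highest TNFRSF10A (12.89), TNFRSF10B (51.82) and TNFRSF1A (14.17) of its group. TNFRSF10A was at 11.08 FPKM in 2 nM nonproliferative replicate 2, at 4.54 in 1 empty C1 capture, and at 0 in C1 1-cell replicate 1, where the next value was 1.35. TNFRSF1A was at 4.58 FPKM in 1 empty C1 capture. TNFRSF21 was at 2.79 FPKM in 1 empty C1 capture, at 12.05 in untreated nonproliferative replicate 4, and at 3.12 in raft 1-cell replicate 9, where the next value was 36.39.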

How the results depend on the processing

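Unknown depth limits low genes to detected or not, and treatment and library set cannot be told apart. No paired analysis was possible because replicate numbers were given in accession order and the titles share no raft number between groups. The causes of the changes below were not tested. Of 118 recounts of called genes, 70 stayed within 1.5 times the value from the 52 libraries and 48 moved. Most of the 70 were counts of 0 that stayed at 0. Where any gene was called in the 52 libraries, more recounts moved than stayed. In the treatment rafts 46 values of the 6 genes changed sign under an alternative, none of them called, and in the isolation experiment, which has no test, 23 did. Among these are TNFRSF21 between the classes and TNFRSF1A for 5 nM against saline, both in the bulk-like libraries. TNFRSF6B lost its class call in the bulk-like libraries (1.60, adjusted p = 0.450, limma) and with detected genes as a covariate (2.78, 0.0768). It lost its call for 5 nM against saline with no filter (adjusted p = 0.0820), with all 64 rafts (-3.65, 0.0707) and with the covariate (-2.88, 0.319).

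Genes called between the classes over 4 arms (1403) became 774 with no filter, 659 with all 64 rafts, 93 in bulk-like rafts, 734 with quantile normalization and 226 with the covariate. Within the untreated arm (0) there were 69 in bulk-like rafts and 9 with quantile normalization, and in the saline arm (0) there were 1 and, with the covariate, 2. The 2 nM arm (3) gave 0 with a pseudocount of 0.1, with at least 3000 genes, with quantile normalization and with equal totals, and 1 with the covariate. The 5 nM arm (0) gave 1 with no filter, 31 with at least 3000 genes, 52 in bulk-like rafts, and 3 with quantile normalization and with the covariate. The change in class difference from saline to 5 nM (0) gave 5 in bulk-like rafts.

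For 5 nM against saline (540) the counts were 879 with a pseudocount of 0.1, 253 with no filter, 337 with all 64 rafts, 123 with quantile normalization, 9 with the covariate and 854 without saline nonproliferative replicate 3. For saline against untreated (44) they were 890, 5, 3004, 1, 0 and 456 in that order, with 561 in bulk-like rafts and 422 without both that library and 5 nM nonproliferative replicate 7. There TNFRSF12A and TNFRSF6B passed in 5 of 10 alternatives, with adjusted p up to 0.992 with the covariate. For 5 nM against saline in proliferative rafts (5) the count was 1 with a pseudocount of 0.1, no filter, all 64 rafts, at least 3000 genes, equal totals, without saline nonproliferative replicate 3 and without both libraries, 14 with quantile normalization, 2 with the covariate and 8 with rows of a name summed. In nonproliferative rafts (0) it was 157 with at least 3000 genes, 112 in bulk-like rafts, 2 without saline nonproliferative replicate 3 and 1 without both. Contrasts with untreated nonproliferative rafts gave no value at 3000 genes, where no such raft was left.

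Leaving out each bulk-like library in turn, TNFRSF12A kept its call between the classes (3.33 to 4.19), at 5 nM (7.17 to 8.73), for 5 nM against saline (-5.19 to -4.41) and for that comparison in nonproliferative rafts (-10.06 to -8.50). TNFRSF6B kept its call for 5 nM against saline (-5.82 to -4.55). Apart from that between the classes, the TNFRSF12A calls depended on which libraries were used. With the bulk-like set counted among 11 alternatives to the 52 libraries, TNFRSF12A was called at 5 nM in 2. For 5 nM against saline it was called in 1 of 11, and for that comparison in nonproliferative rafts in 2 of 11. The change in class difference was called in 1 of 11.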
